A study of Danio rerio with 12 samples.

Results

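Erythroid globin and heme genes were followed in whole zebrafish embryos of 4 genotypes at 80 hours post fertilization. The set holds alas2, slc4a1a, gata1a, tal1 and epb41b, taken by name, and every array probe set whose platform symbol starts with hba or hbb. This gave 11 probe sets with 1 symbol, covering 10 of the 8793 genes so named on the array, and 6 of these probe sets were globins. A further 4 probe sets were annotated to several globin symbols at once, so that which gene each measured cannot be told. Together they were 15 of the 15502 probe sets tested on an Affymetrix oligonucleotide array, with 3 arrays for each genotype and 12 in all.

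BRAF;p53 embryos, the double genotype, were homozygous both for a stable transgene, mitf-BRAFV600E, and for the p53 mutation M214K. BRAF embryos carried only the transgene, p53 embryos only the mutation, and wild-type embryos of the Tu strain carried neither. The mitf promoter drives expression in the pigment cell lineage, so the transgene is not directed at blood. M214K is a loss-of-function missense allele, so that the level of p53 RNA does not check this label. Each genotype was incrossed and total RNA was taken from embryos, with the number of embryos and clutches behind a sample not given in the labels. The p-values therefore cover the spread among samples whose separate origin is not stated and which may be technical. The p53 samples 1 and 2 have the source names 1a and 1b. All transgene carriers belong to a stable line, so that the transgene and any other difference of that line cannot be told apart. As each genotype was incrossed, the mutation and any other difference between p53 and Tu embryos cannot be told apart either.

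Haemoglobin is a tetramer of alpha and beta globin chains, each holding a heme group, and it fills the red cell. Zebrafish make embryonic chains (hbae and hbbe genes) in the first wave of red cells and adult chains (hbaa and hbba genes) later. Heme is built by a chain of enzymes whose first step in red cells is run by Alas2. The transcription factors Gata1a and Tal1 drive red cell genes, Slc4a1a (band 3) exchanges anions across the red cell membrane, and Epb41b ties the membrane to the spectrin skeleton. Zebrafish mutants of alas2, slc4a1a, epb41b and gata1a were found by their anaemia. In the RefSeq annotation of assembly GRCz12tu the genes hbba2, ba1l, hbaa1, hbba1, hbbe1.1, hbae1.1, hbbe1.2, hbae1.2, hbbe1.3 and hbae3 lie close together in this order on chromosome 3, with alpha and beta genes interleaved, while hbbe3 and hbbe2 are neighbours on chromosome 12.

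The deposited values are on the log2 scale, with each probe set centred near its own median over the 12 arrays. A value of 0 is that median and not absence, and 1 unit is a doubling. Levels can be compared between arrays for 1 probe set, never between probe sets, and the presence of red cells could not be read from levels. In RNA of whole embryos, fewer red cells and less RNA per red cell cannot be told apart. Arrays have no read depth, and 3 arrays per genotype limit the precision of each mean.

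Of the 15 erythroid probe sets 1 passed a test between genotypes, an embryonic alpha globin probe set that was higher in both genotypes with the transgene. Of the 11 probe sets with 1 symbol, 0 passed limma's test at an adjusted p of 0.05, over all probe sets, between BRAF;p53 and wild type, where 1.95% of all probe sets passed. The count was also 0 of 11 between BRAF and wild type (6.41% of all), between p53 and wild type (1.83%), between BRAF;p53 and p53 (2.94%) and between BRAF;p53 and BRAF (4.5%). It was 0 of 11 for the interaction, which asks whether the transgene's difference depends on p53 (3.21%), and for any difference among the 4 genotypes (9.43%). Shares of that size come to about 1 probe set in 11 or fewer, so a count of 0 does not set these genes apart from the rest of the array. Among the 4 probe sets with several symbols, 1 passed in both contrasts of transgene carriers with wild type and in the contrast of the double genotype with p53, and it was the same probe set each time.

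That probe set, called hbae1.1/hbae1.2 probe set 1, is annotated to both hbae1.1 and hbae1.2, a pair of embryonic alpha globin genes. Its centred log2 values were 0.31, 0.92 and 0.91 in BRAF;p53 arrays, 1.3, 0.85 and 0.33 in BRAF arrays, -0.82, -1.35 and -0.39 in p53 arrays and -0.82, -0.87 and -1.16 in wild-type arrays. All 6 arrays of transgene carriers lay above all 6 arrays without the transgene. Means were 0.71 ± 0.35 in BRAF;p53, 0.83 ± 0.48 in BRAF, -0.85 ± 0.48 in p53 and -0.95 ± 0.18 in wild type (SD, n = 3 each). Such a split by transgene was seen in 2.64% of all probe sets, in 1 of the 4 with several symbols and in 0 of the 11 with 1 symbol.

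The values of this probe set rose by 1.78 ± 0.28 (SE) on the log2 scale in BRAF against wild type, or 3.42-fold, with a 95% interval of 1.16 to 2.39 and a limma adjusted p of 0.00327. They rose by 1.66 ± 0.28 in BRAF;p53 against wild type, or 3.16-fold (interval 1.05 to 2.28, limma adjusted p = 0.0107). Against p53, BRAF;p53 embryos were 1.57 ± 0.28 higher, or 2.96-fold (interval 0.95 to 2.18, limma adjusted p = 0.0131). The comparisons with wild type share the wild-type arrays. The mutation alone gave 0.09 against wild type (interval -0.52 to 0.71, limma adjusted p = 0.924), and the interaction was -0.21 (interval -1.08 to 0.66, limma adjusted p = 0.807). Over the fits that each left out 1 of the 12 arrays, the call in BRAF held in 12 of 12. The call in BRAF;p53 against wild type held in 9 of 12 and was lost without array 2 (0.0555) or array 3 (0.0537) of the double genotype or wild-type array 3 (0.0507), all limma adjusted p. The call in BRAF;p53 against p53 held in 10 of 12 and was lost without array 2 (limma adjusted p = 0.0668) or array 3 (0.0546) of the double genotype.

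A second probe set, hbae1.1/hbae1.2 probe set 2, carries the same pair of symbols and did not show this split. It gave 0.23, 0.14 and 0.07 in BRAF;p53, 0.33, -0.54 and -0.33 in BRAF, -0.22, -0.49 and 0.27 in p53 and -0.07, 0.10 and -0.08 in wild type. Its ranges overlapped between all 4 genotypes. The difference was 0.16 in BRAF;p53 against wild type (interval -0.32 to 0.65, limma adjusted p = 0.89) and -0.16 in BRAF against wild type (interval -0.65 to 0.32, limma adjusted p = 0.7). In both contrasts its interval lay wholly below that of its companion, whose intervals began at 1.05 and 1.16. The probe sets of hbae1.1 and hbae1.2 thus gave different answers, and which of them follows which transcript cannot be told here. Both were described one by one after their values were seen, as were the other probe sets with several symbols.

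**Figure D1:**
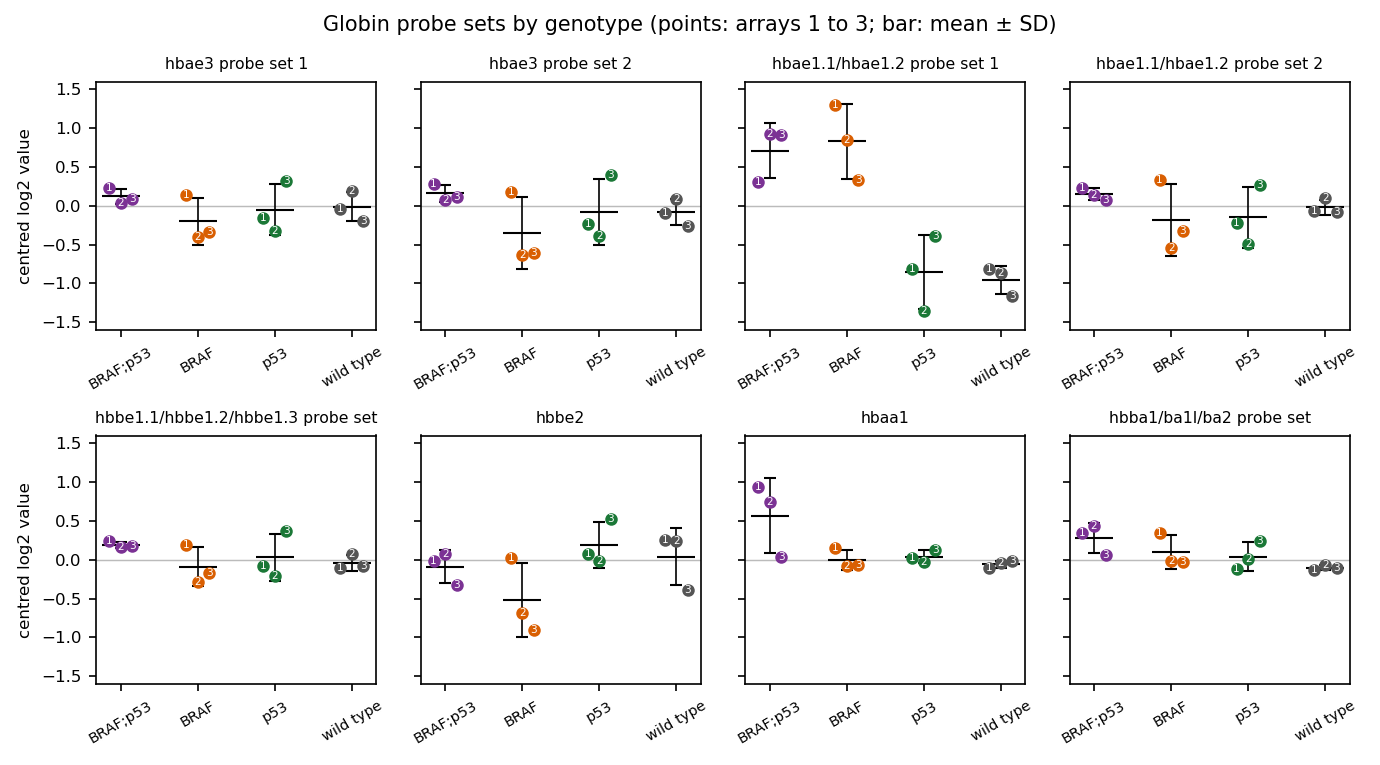
Centred log2 values of 8 globin probe sets, 1 panel each, by genotype on the horizontal axis. Points are single arrays with their replicate number, and bars are the mean ± SD of 3 arrays. In the hbae1.1/hbae1.2 probe set 1 the 6 transgene carrier arrays, from 0.31 to 1.3, lie above the 6 other arrays, from -1.35 to -0.39. The panels of hbae3, hbbe1 and hbae1.1/hbae1.2 probe set 2 share one pattern without this split. BRAF array 1 and p53 array 3 are the highest of their genotypes in all 8 panels.

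The embryonic alpha globin hbae3 had 2 probe sets that ran together. The first gave 0.23, 0.04 and 0.09 in BRAF;p53, 0.14, -0.40 and -0.34 in BRAF, -0.16, -0.33 and 0.32 in p53 and -0.04, 0.19 and -0.19 in wild type. The second gave 0.28, 0.08 and 0.11 in BRAF;p53, 0.18, -0.63 and -0.61 in BRAF, -0.24, -0.39 and 0.40 in p53 and -0.09, 0.09 and -0.26 in wild type. Arrays of the double genotype were tight and above 0 in both, whereas BRAF and p53 arrays each spanned the centre. The first differed by 0.14 (interval -0.27 to 0.54) and the second by 0.24 (interval -0.28 to 0.77) in BRAF;p53 against wild type, with limma adjusted p of 0.891 and 0.799. BRAF against wild type gave -0.19 and -0.27 (limma adjusted p = 0.594 and 0.543). The second probe set's contrast of BRAF;p53 with BRAF was 0.51 ± 0.24 (SE, limma adjusted p = 0.234).

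Among embryonic beta globins, the probe set annotated to hbbe1.1, hbbe1.2 and hbbe1.3 gave 0.24, 0.16 and 0.18 in BRAF;p53, 0.19, -0.28 and -0.17 in BRAF, -0.08, -0.21 and 0.37 in p53 and -0.10, 0.08 and -0.08 in wild type. Its 3 BRAF;p53 arrays lay above the 3 wild-type arrays by a difference of 0.23 in the means (interval -0.12 to 0.57, limma adjusted p = 0.641). The beta chain gene hbbe2 gave -0.02, 0.07 and -0.32 in BRAF;p53, 0.02, -0.68 and -0.90 in BRAF, 0.07, -0.02 and 0.53 in p53 and 0.26, 0.24 and -0.39 in wild type. The lowest values of hbbe2 were those of BRAF arrays 2 and 3, and array 3 of wild type also lay below its companions. BRAF against wild type came to -0.56 ± 0.25 for hbbe2 (SE, limma adjusted p = 0.236).

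The probe set of hbbe3, the neighbour of hbbe2, sat between -1.87 and -1.71 on 10 of the 12 arrays. The exceptions were BRAF;p53 array 1 and wild-type array 2, both at -1.05. Its median was -1.82 although most probe sets have a median of 0, and by what it was divided is unknown. The adult beta globin hbba2 also lay far below 0, from -1.36 to -1.12, a range of 0.25 over 12 arrays. The differences from wild type were at most 0.08 in size for hbba2 and 0.28 for hbbe3, with limma adjusted p of 0.612 or more. Values of hbba2 followed the median of the 1607 probe sets below the centre over the arrays (r = 0.91), those of hbbe3 did not (r = -0.18).

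The adult alpha globin hbaa1 stood out in the double genotype without passing the test. Its values were 0.94, 0.74 and 0.03 in BRAF;p53, 0.15, -0.08 and -0.07 in BRAF, 0.02, -0.03 and 0.12 in p53 and -0.11, -0.04 and -0.02 in wild type. The first and second arrays of the double genotype were the highest of the 12, while the third lay among those of the other genotypes. BRAF;p53 differed from wild type by 0.63 ± 0.19 (SE), 1.55-fold, with an interval of 0.21 to 1.04 and a limma adjusted p of 0.141. Without array 3 of the double genotype the difference was 0.90 with a limma adjusted p of 0.00347. Without that array the double genotype also differed in hbaa1 from p53 (limma adjusted p = 0.00628) and from BRAF (0.00479), and the interaction passed (0.0299). In each of these contrasts this was the only 1 of 12 fits without 1 array to pass. The difference from wild type ran from 0.44 to 0.90 over those fits, and the highest limma adjusted p was 0.459. The lowest difference was 0.35 from p53 and 0.39 from BRAF, with highest limma adjusted p of 0.569 and 0.365.

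The adult beta globin probe set annotated to hbba1, ba1l and ba2 likewise had its highest mean in the double genotype. It gave 0.35, 0.43 and 0.06 in BRAF;p53, 0.35, -0.01 and -0.03 in BRAF, -0.12, 0.01 and 0.24 in p53 and -0.13, -0.07 and -0.10 in wild type. The 3 wild-type arrays were the closest together and lay below all arrays of transgene carriers. BRAF;p53 against wild type came to 0.38 ± 0.14 (SE, interval 0.08 to 0.68, limma adjusted p = 0.228) and BRAF against wild type to 0.21 (limma adjusted p = 0.416).

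The heme synthesis gene alas2 had -0.03, -0.32 and -0.49 in BRAF;p53, 0.46, -0.53 and -0.43 in BRAF, 0.14, -0.49 and 0.14 in p53 and 0.47, 0.49 and 0.03 in wild type. All arrays of the double genotype lay below all wild-type arrays, and BRAF and p53 arrays covered most of the range between. The difference from wild type was -0.61 ± 0.27 (SE) in BRAF;p53, 0.657-fold, with an interval of -1.19 to -0.02 and a limma adjusted p of 0.36. It was -0.50 in BRAF (limma adjusted p = 0.311) and -0.40 in p53 (limma adjusted p = 0.558). Whereas hbae3, hbaa1 and slc4a1a had their highest mean in the double genotype, alas2 had its highest in wild type, although neighbouring means overlapped for each of them.

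Of the membrane genes, slc4a1a gave 0.36, 0.36 and 0.27 in BRAF;p53, 0.42, -0.08 and -0.32 in BRAF, -0.17, -0.28 and 0.24 in p53 and -0.47, 0.08 and -0.35 in wild type. Arrays of the double genotype lay above all p53 and all wild-type arrays, and BRAF array 1 was higher still. BRAF;p53 against wild type was 0.58 ± 0.20 (SE, 1.49-fold, interval 0.13 to 1.02, limma adjusted p = 0.218) and BRAF;p53 against p53 was 0.40 (limma adjusted p = 0.384). The other membrane gene, epb41b, gave 0.19, 0.17 and 0.22 in BRAF;p53, -0.36, -0.34 and -0.20 in BRAF, -0.59, 0.38 and 1.18 in p53 and -0.49, -0.41 and -0.26 in wild type. Those of the double genotype lay above BRAF and wild-type arrays with no overlap, and the p53 arrays spanned the widest range of any genotype in the set. The difference was 0.58 ± 0.32 in BRAF;p53 against wild type (SE, limma adjusted p = 0.508) and 0.71 ± 0.32 in p53 against wild type (limma adjusted p = 0.34). Without p53 array 1, p53 against wild type was 1.16 with a limma adjusted p of 0.0202. Of the 12 fits that each left out 1 array, only this 1 passed. The difference ran from 0.28 to 1.16 over those fits, and the highest limma adjusted p was 0.623. The SE of 0.32 pools all genotypes, and the SD of epb41b was 0.02 in BRAF;p53, 0.12 in wild type and 0.88 in p53. Fitting only the genotypes compared, epb41b passed in BRAF;p53 against wild type with 0.58 (limma adjusted p = 0.0118). In such a fit it also passed in BRAF;p53 against BRAF with 0.50 (limma adjusted p = 0.0328). Of all 15502 probe sets 836 and 596 then passed, beside 302 and 698.

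Both transcription factor genes had their lowest mean in the double genotype and their highest in wild type. For gata1a the values were -0.11, -0.31 and -0.06 in BRAF;p53, 0.02, -0.09 and -0.05 in BRAF, -0.02, 0.05 and 0.11 in p53 and 0.36, 0.23 and 0.07 in wild type. The wild-type arrays lay above all arrays of transgene carriers, and array 3 of wild type overlapped with p53. BRAF;p53 against wild type was -0.38 ± 0.10 (SE, 0.767-fold, interval -0.60 to -0.16), the smallest p of the 11 probe sets in that contrast, with a limma adjusted p of 0.0844. BRAF against wild type was -0.27 (limma adjusted p = 0.154) and p53 against wild type -0.17 (limma adjusted p = 0.468). For tal1 the values were -0.23, -0.26 and -0.18 in BRAF;p53, 0.18, -0.03 and -0.49 in BRAF, 0.16, -0.14 and 0.03 in p53 and 0.11, 0.54 and 0.24 in wild type. The arrays of the double genotype lay below all p53 and all wild-type arrays. The difference between BRAF;p53 and wild type was -0.52 ± 0.16 (SE, 0.699-fold, interval -0.88 to -0.15, limma adjusted p = 0.169), and between BRAF and wild type it was -0.41 (limma adjusted p = 0.184). After quantile normalization between arrays, 3 of these contrasts of BRAF;p53 with wild type passed: gata1a with -0.43 (limma adjusted p = 0.0333), slc4a1a with 0.69 (0.0448) and tal1 with -0.61 (0.0448). That step also raised the calls among all 15502 probe sets in this contrast from 302 to 774.

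**Figure D2:**
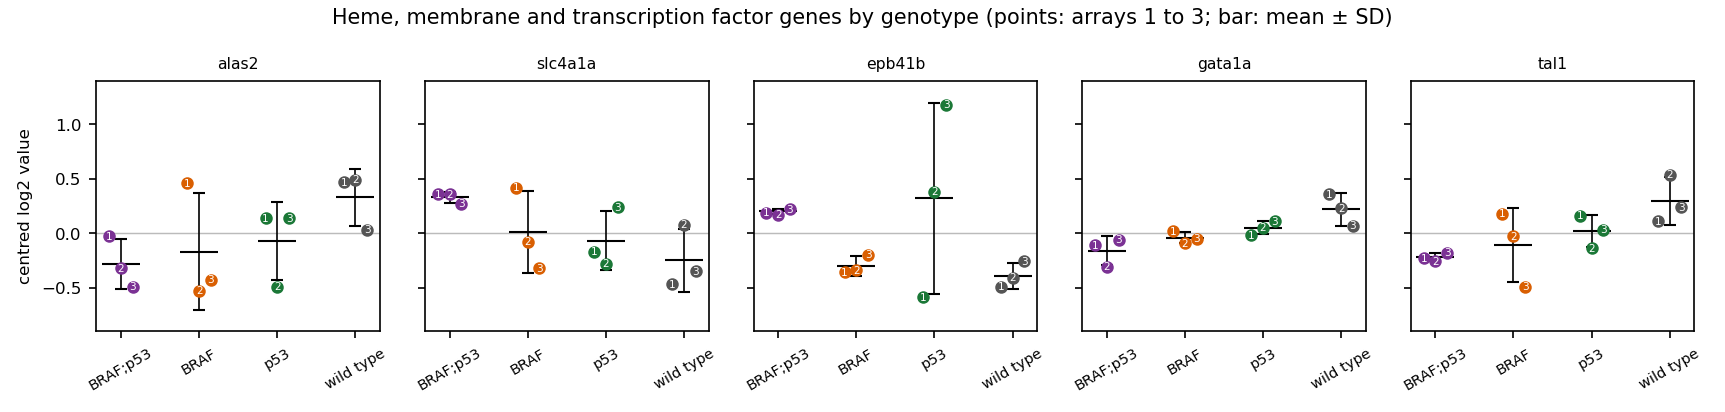
Centred log2 values of alas2, slc4a1a, epb41b, gata1a and tal1 by genotype, 1 panel each. Points are single arrays with their replicate number, and bars are the mean ± SD of 3 arrays. Values of gata1a and tal1 lie between -0.31 and -0.06 in BRAF;p53 arrays and between 0.07 and 0.54 in wild-type arrays, and epb41b spans -0.59 to 1.18 in p53 arrays.

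Before adjustment for the number of probe sets, 5 of 11 had a limma p under 0.05 in BRAF;p53 against wild type, beside 13.0% of all probe sets: hbaa1, alas2, slc4a1a, gata1a and tal1. They did not share a direction, with hbaa1 and slc4a1a at positive differences and alas2, gata1a and tal1 at negative ones. In BRAF against wild type there were 3 of 11 (21.1% of all), namely hbbe2, gata1a and tal1, and in p53 against wild type there was 1 (14.3%), epb41b. Both BRAF;p53 against p53 (15.4%) and BRAF;p53 against BRAF (22.0%) had 1 of 11, hbaa1. The interaction had 0 (18.8%), and any difference among genotypes had 3 (25.7%), hbaa1, gata1a and tal1.

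Arrays of BRAF;p53 and wild type did not overlap in 6 of the 11 probe sets, hbaa1, alas2, slc4a1a, epb41b, gata1a and tal1, where 25.3% of all probe sets were so separated. The count was 1 of 11 for BRAF against wild type (28.4%), gata1a, and 0 for p53 against wild type (19.1%). It was 3 for BRAF;p53 against p53 (21.9%), slc4a1a, gata1a and tal1, and 1 for BRAF;p53 against BRAF (29.0%), epb41b. Ordering the genotypes by their mean, neighbours in the order overlapped for every probe set except the hbae1.1/hbae1.2 probe set 1, where the double genotype lay above p53, and epb41b, where it lay above BRAF. The median difference over the 11 probe sets was 0.01 in BRAF;p53 against wild type, -0.22 in BRAF against wild type and 0.01 in p53 against wild type, beside -0.011, 0.047 and 0.001 over all probe sets. In BRAF;p53 against BRAF it was 0.32, beside -0.057 over all, with 7 of 11 above 0. The SD of the hbae1.1/hbae1.2 probe set 1 over the 12 arrays exceeded that of 98.5% of all probe sets, that of alas2 87.8%, that of gata1a 37.8% and that of hbba2 4.81%.

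**Figure D3:**
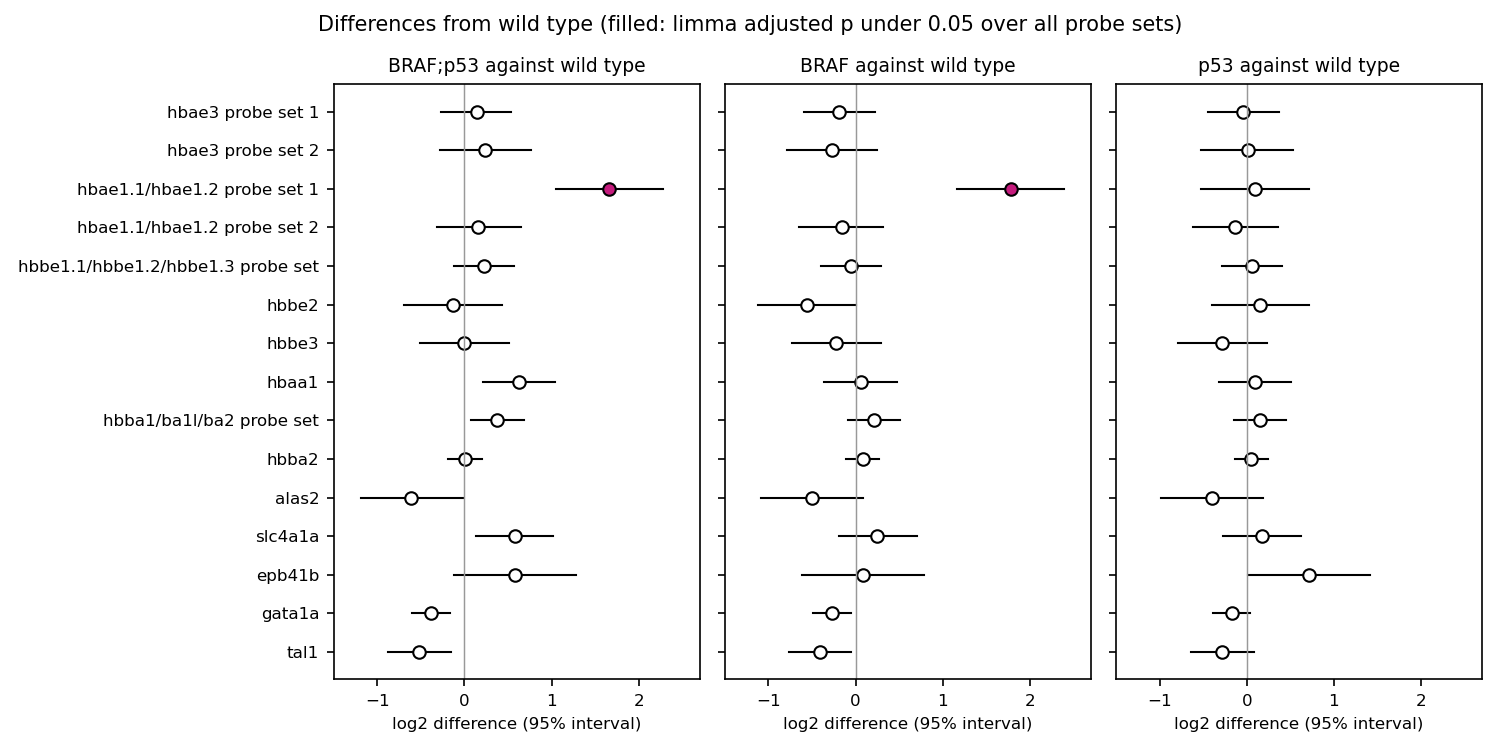
Log2 differences of BRAF;p53, BRAF and p53 from wild type, 1 panel each, for the 15 probe sets. Points are limma estimates, lines their 95% intervals, and filled points have a limma adjusted p under 0.05 over all probe sets. The filled points are the hbae1.1/hbae1.2 probe set 1 at 1.66 in BRAF;p53 and 1.78 in BRAF.

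A block of 4 embryonic globin probe sets (both of hbae3, hbae1.1/hbae1.2 probe set 2 and hbbe1.1/hbbe1.2/hbbe1.3) moved together from array to array. Pearson's r between them was 0.94 to 0.98 in their 6 pairs over the 12 arrays, Spearman's rho 0.92 to 0.98, and r was 0.91 to 0.98 without the 2 arrays farthest from the median. Taking the deviations from genotype means, r was again 0.94 to 0.98. The 4 were picked by name from the embryonic globin probe sets, and 2 of them measure hbae3. They share their arrays, and globin genes are alike in sequence, so the correlations are descriptions only. The embryonic beta globin hbbe3, outside the block, followed it with r of 0.34 to 0.50. Band 3 gene slc4a1a followed the same 4 probe sets with r of 0.72 to 0.82, hbbe2 with 0.59 to 0.76 and the hbba1/ba1l/ba2 probe set with 0.56 to 0.71. Without the 2 farthest arrays r was 0.75 to 0.94 for slc4a1a, 0.29 to 0.61 for hbbe2 and 0.55 to 0.77 for the hbba1/ba1l/ba2 probe set. For the heme gene alas2 r was 0.35 to 0.57 over the arrays, 0.16 to 0.34 without the 2 farthest, and 0.75 to 0.85 within genotypes. For gata1a r was -0.12 to 0.13 over the arrays and 0.30 to 0.47 within genotypes, for tal1 0.07 to 0.28 and 0.47 to 0.56, and for hbae1.1/hbae1.2 probe set 1 0.16 to 0.31 and 0.65 to 0.69.

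**Figure D4:**
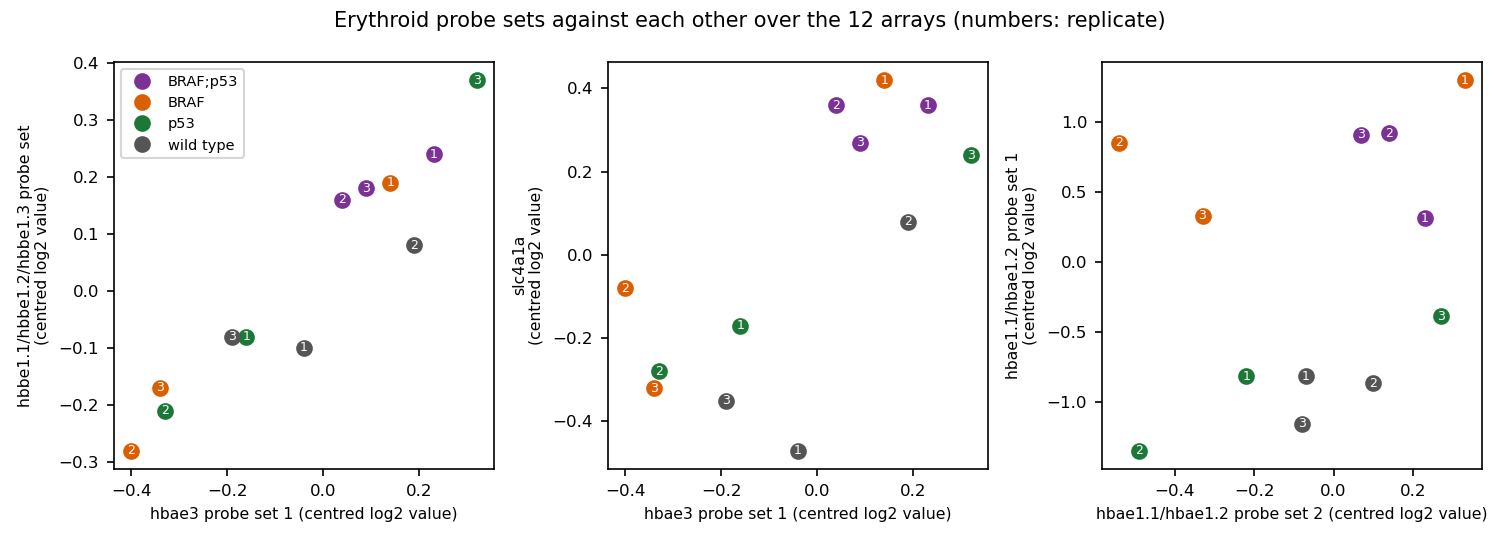
Pairs of erythroid probe sets over the 12 arrays, each axis in centred log2 values, coloured by genotype with replicate numbers inside the points. The hbae3 and hbbe1.1/hbbe1.2/hbbe1.3 probe sets lie near a line, slc4a1a scatters around one, and the hbae1.1/hbae1.2 probe sets split into transgene carriers above 0.3 and the other arrays below -0.3 on the vertical axis.

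Array-to-array spread inside a genotype bears on all these genes. BRAF array 1 correlated with BRAF arrays 2 and 3 at 0.564 and 0.409 over all probe sets, against 0.834 between those arrays, and p53 array 3 at 0.467 and 0.477 with its companions, against 0.746. BRAF array 1 was the highest of its genotype in 10 of the 11 erythroid probe sets and in 4 of 4 with several symbols, while it was highest in 60.3% of all probe sets. Array 3 of p53 was highest in 7 of 11 and 4 of 4, against 34.9% of all. Their median gap to the mean of the other 2 arrays was 0.44 and 0.31 over the 11 probe sets, beside 0.129 and -0.019 over all. The largest gaps were 0.94 for alas2 on BRAF array 1 and 1.28 for epb41b on p53 array 3. What part these arrays have in the differences between genotypes is given by the values without them.

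Left out together, these 2 arrays change many calls, although they were picked for their distance and the spread that remains is then understated. The second hbae3 probe set gave -0.54 in BRAF against wild type (limma adjusted p = 0.0171) and 0.78 in BRAF;p53 against BRAF (0.00427), with an interaction of 1.01 (0.00651). With 1 array left out at a time, each of these contrasts passed in 0 of 12 fits. The first hbae3 probe set gave -0.36 (limma adjusted p = 0.0897), 0.49 (0.0382) and 0.72 (0.032) in the same order. In BRAF against wild type the hbbe1.1/hbbe1.2/hbbe1.3 probe set gave -0.19 (limma adjusted p = 0.196). BRAF;p53 against BRAF gave 0.42 (limma adjusted p = 0.0218) and BRAF;p53 against p53 0.34 (0.049) for this probe set. Its interaction was 0.53 (limma adjusted p = 0.0323). The hbae1.1/hbae1.2 probe set 2 gave -0.42 in BRAF against wild type (limma adjusted p = 0.0437), on the opposite side of 0 from its companion's 1.54 (0.00366). For probe set 2, BRAF;p53 against BRAF gave 0.58 (limma adjusted p = 0.0164) and BRAF;p53 against p53 0.50 (0.0281). The interaction of probe set 2 was 0.92 (limma adjusted p = 0.00962). In BRAF against wild type hbbe2 gave -0.83 (limma adjusted p = 0.026) and alas2 -0.81 (0.0381), while slc4a1a gave 0.58 in BRAF;p53 against wild type (0.0373). With all arrays none of these passed except that of the companion. Leaving out these 2 arrays also raised the calls among all 15502 probe sets. They rose from 993 to 1766 in BRAF against wild type and from 302 to 916 in BRAF;p53 against wild type. They rose from 698 to 1162 in BRAF;p53 against BRAF and from 456 to 1227 in BRAF;p53 against p53. In the interaction they rose from 497 to 1469.

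Other genes of red cells were taken from lists of their pathways. Of heme synthesis 6 of 9 genes were measured. Of 6 probe sets 1 passed in BRAF;p53 against p53 (2.94% of all) and 0 in the other pairwise contrasts. It was that of cpox, the enzyme making protoporphyrinogen, which fell by 0.48 (limma adjusted p = 0.0497). That call held in 2 of 12 fits without 1 array, and the adjusted p reached 0.189 without array 1 of the double genotype. The housekeeping first enzyme alas1 gave -0.74 ± 0.21 (SE) in BRAF;p53 against wild type (limma adjusted p = 0.106). Of iron and heme transport 10 of 23 genes were measured and 0 passed in any contrast, with unadjusted p under 0.05 in 2 of 10 in BRAF;p53 against wild type (13.0% of all probe sets), 1 in BRAF (21.1%) and 2 in p53 (14.3%). Of 24 further erythroid transcription factors 13 were measured by 14 probe sets, of which 1 passed in BRAF;p53 against p53 (2.94% of all). It was that of klf3, a Krüppel-like repressor, which rose by 1.06 (limma adjusted p = 0.0221). The klf3 call held in 9 of 12 fits and was lost at 0.0809 without array 1 of the double genotype.

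Of the red cell membrane and skeleton list 10 of 25 genes were measured by 14 probe sets, and 3 genes rose and 0 fell in BRAF;p53 against wild type (4 of 14 probe sets, against 1.95% of all). In BRAF against wild type 2 genes rose and 2 fell (4 of 14 probe sets, against 6.41% of all). BRAF;p53 against p53 had 2 genes higher and 1 lower (4 of 14 probe sets, against 2.94% of all). BRAF;p53 against BRAF had 1 higher and 0 lower (2 of 14 probe sets, against 4.5% of all). The interaction had 1 of 14 probe sets (3.21% of all) and p53 against wild type 0 (1.83%). The alpha adducin gene add1, whose protein caps actin in the membrane skeleton of many cell types, gave 1.62, 0.63 and 0.30 in BRAF;p53, 0.95, 0.80 and 0.85 in BRAF, -0.96, -0.37 and -2.52 in p53 and -2.97, -2.58 and -2.41 in wild type. Like the hbae1.1/hbae1.2 probe set 1, its 6 transgene carrier arrays lay above the other 6. It rose by 3.50 ± 0.47 in BRAF;p53 (SE, limma adjusted p = 0.0027) and by 3.52 ± 0.47 in BRAF (0.00128), both against wild type, and both calls held in 12 of 12 fits without 1 array. Against p53 it rose by 2.14 in BRAF;p53 (limma adjusted p = 0.0363), a call held in 4 of 12 fits and lost at 0.157 without array 1 of the double genotype.

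Stomatin (stom), a membrane protein named for a red cell disorder, rose in BRAF;p53 against wild type on both probe sets, by 0.85 and 0.96 (limma adjusted p = 0.0164 and 0.015), and on 1 of them in BRAF by 0.88 (0.0105, held in 12 of 12 fits without 1 array). The calls of the stom probe sets in BRAF;p53 held in 7 and 9 of 12 fits. Both were lost without array 3 of the double genotype, with limma adjusted p of 0.068 and 0.0682. The stom probe sets also lay higher in p53 than in wild type, by 0.57 and 0.68, without passing (limma adjusted p = 0.101 and 0.0803). BRAF;p53 against p53 gave 0.27 on each (limma adjusted p = 0.446 and 0.511). Against wild type the gamma adducin gene add3a was split over its 3 probe sets. Its first probe set rose by 1.38 in BRAF;p53 against wild type (limma adjusted p = 0.0361). That call held in 4 of 12 fits and was lost at 0.133 without array 1 of the double genotype. In BRAF;p53 against wild type the second add3a probe set gave 0.22 (limma adjusted p = 0.486) and the third 0.01. The second fell by 0.71 in BRAF against wild type (limma adjusted p = 0.00371) with an interaction of 1.33 (0.00131), both held in 12 of 12 fits. The third passed in no contrast. Against BRAF, BRAF;p53 embryos were 1.38 higher on the first probe set and 0.93 on the second (limma adjusted p = 0.0219 and 0.00136). Against p53 they were 1.41 and 0.62 higher (limma adjusted p = 0.0267 and 0.0163). These calls held in 9 and 12 of 12 fits against BRAF and in 7 and 9 against p53. In BRAF against wild type the water channel gene aqp1a.1 fell by 0.36 (limma adjusted p = 0.0355). The aqp1a.1 call held in 3 of 12 fits and was lost at 0.115 without wild-type array 1. In BRAF;p53 against p53 the gene ank1a, whose protein ankyrin anchors band 3, fell by 0.67 (limma adjusted p = 0.0213). The ank1a call held in 9 of 12 fits and was lost at 0.103 without array 1 of the double genotype.

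Of erythropoietin signalling and survival 9 of 15 genes were measured by 10 probe sets. In BRAF against wild type 1 of 10 passed (6.41% of all), and in BRAF;p53 against p53 also 1 (2.94%). The count was 1 of 10 in BRAF;p53 against BRAF (4.5%) and in the interaction (3.21%). The receptor-associated kinase gene jak2a rose by 0.30 in BRAF;p53 against p53 (limma adjusted p = 0.0488), a call held in 1 of 12 fits without 1 array and lost at 0.195 without array 2 of the double genotype. The feedback inhibitor gene socs3b rose by 0.82 in BRAF against wild type (limma adjusted p = 0.0433). That call held in 3 of 12 fits and was lost at 0.151 without wild-type array 2. The transcription factor gene stat5a gave 1.01, 0.99 and 0.70 in BRAF;p53 and -0.54, -0.66 and -0.62 in BRAF. In BRAF;p53 against BRAF stat5a rose by 1.51 (limma adjusted p = 0.0142). This call held in 10 of 12 fits and was lost at 0.0643 without array 1 of the double genotype. The stat5a interaction of 2.15 (limma adjusted p = 0.0167) held in 12 of 12 fits. Of red cell antioxidant and metabolic genes 14 of 18 were measured by 17 probe sets, of which 2 passed in BRAF;p53 against BRAF (4.5% of all). They were those of the glutathione peroxidase genes gpx1a and gpx1b, which fell by 0.48 and 0.98 (limma adjusted p = 0.0272 and 0.0367). The gpx1a call held in 7 of 12 fits and was lost at 0.0897 without array 2 of the double genotype. The gpx1b call held in 5 of 12 fits and was lost at 0.138 without array 1 of the double genotype. Mitochondrial carrier gene ucp1 rose by 0.88 in BRAF against wild type (limma adjusted p = 0.0322, 1 of 17 probe sets against 6.41% of all). That call held in 8 of 12 fits and was lost at 0.104 without BRAF array 2. The ucp1 interaction was -1.37 (limma adjusted p = 0.0355, 1 of 17 probe sets against 3.21% of all). It held in 5 of 12 fits and was lost at 0.097 without array 2 of the double genotype.

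Markers of other blood and vessel cells gave 0 calls in any pairwise contrast or interaction: 11 of 13 leukocyte genes, 4 of 7 thrombocyte genes and 4 of 13 endothelial genes were measured. At an unadjusted p under 0.05 they had 2, 0 and 0 of their 16, 4 and 4 probe sets in BRAF;p53 against wild type (13.0% of all), and 4, 0 and 0 in BRAF against wild type (21.1% of all). Their median differences were 0.02, -0.01 and 0.17 in BRAF;p53 against wild type and 0.10, -0.08 and 0.06 in BRAF against wild type. Of 10 measured liver genes, fgb rose by 0.49 (limma adjusted p = 0.0177) and vtnb fell by 0.62 (0.0317) in BRAF against wild type. They were 2 of 11 probe sets, against 6.41% of all. In p53 against wild type vtnb fell by 0.84 (limma adjusted p = 0.0158), as 1 of 11 probe sets against 1.83% of all. These 3 calls held in 11, 6 and 10 of 12 fits. All were lost without wild-type array 1, with limma adjusted p of 0.0731, 0.115 and 0.0667. The interaction passed for vtnb, at 0.99 (limma adjusted p = 0.029), as 1 of 11 probe sets against 3.21% of all. It held in 3 of 12 fits and was lost at 0.0825 without array 1 of the double genotype.

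The probe sets with 1 symbol that were not members were ranked by their likeness to the globin pattern over the arrays. Members and probe sets with several symbols were left out of this ranking and of that for alas2. The rankings therefore cannot show whether members or other genes were closer. Genes of the red cell lists with 1 symbol on their probe set were ranked with the rest. The globin median used includes hbba2 and hbbe3, which lay far below 0 on all arrays. On each array it therefore follows the lower values among hbae3, hbbe2 and hbaa1, and is not a central globin level. Against the per-array median of the 6 globin probe sets with 1 symbol, the cell cycle inhibitor gene cdkn1ca had an r of 0.962, the Wnt receptor gene fzd10 0.94, arfip2a 0.935, the neural crest factor gene snai2 0.925 and jpt1b 0.923. The next were p4ha2 and pmp22a at 0.921, cdkl1 at 0.915, selenon at 0.914 and akirin1 at 0.912. An absolute r above 0.8 was reached by 2.07% of the probe sets ranked. For alas2 the closest were the proliferation-linked gene pclaf at 0.944, capn8 at 0.925, the oxygen-sensing prolyl hydroxylase gene egln1b at 0.913, poglut2 at 0.902 and cdcp1b at 0.893. With deviations from genotype means, cdkn1ca kept an r of 0.971 with this globin median and pclaf one of 0.962 with alas2, while fbxo5 (0.979) and bhmt (0.977) came first. An absolute r above 0.8 was then reached by 7.8% of the probe sets ranked for the globins and 6.1% for alas2, against 1.08% for alas2 over the arrays.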

How the data were processed

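The authors' deposited log2 values came from GCRMA, whose version is not named, per the submitters' processing notes. No further step is given in the sources used here. Raised as powers of 2, they had a median of 1 (tolerance 0.0001) over the 12 arrays in 13937 of 15617 probe sets, or 89.2%, and one below 1 in the other 1680. Brightness, signal over background and the divisor of those 1680 (hbba2, hbbe3 and epb41b among them) are unknown, so no filter on dim probe sets was used.

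Names came from the platform annotation, and the 115 Affymetrix controls were left out. Differences were tested two-sided by lmFit and eBayes of limma 3.58.1 under R 4.3.3, with 1 mean per genotype over all 12 arrays, no block, and Benjamini-Hochberg adjustment over 15502 probe sets at 0.05. The fit was tested on simulated data. Same-numbered arrays of different genotypes deviated together in some pairs and not in others (r from -0.323 to 0.363, over 0.1 in 7 of 18 pairs). The numbers were therefore not taken as pairs. The members and lists were chosen with earlier results of these data known. All probe sets with 1 symbol were to be described and those with several symbols by range only, and the choice to describe each of these came after their values were seen. From each list, genes past the threshold and up to 2 more of smallest p could be named. The genes most like the globins or alas2 were the 10 and 5 of highest correlation among non-member probe sets with 1 symbol. No sequences were used. Tables were made with pandas 2.3.3 and numpy 2.4.6 in Python 3.11.15, and plots with matplotlib 3.10.9. Alternatives are given in the closing section.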

Additional observations from a re-analysis of the deposited data

Results flagged for a closer look

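The membrane skeleton gene epb41b stood out because every BRAF;p53 array lay below the p53 mean while every BRAF array lay above the wild-type mean. BRAF;p53 minus p53 was -0.13 and BRAF minus wild type was 0.09 on the log2 scale. Other erythroid probe sets, such as both of hbae3, also had opposite signs in these differences, but not in every array. The interaction that tests this was -0.21 (limma adjusted p = 0.823), and neither difference passed. The p53 arrays spanned -0.59 to 1.18, and without p53 array 3 BRAF;p53 minus p53 was 0.30.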

How the results depend on the processing

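Of 1947 differences of the 15 erythroid probe sets under the alternatives, 1915 stayed on their side of the threshold, 27 newly passed and 5 no longer passed. With all arrays only hbae1.1/hbae1.2 probe set 1 passed, so most of the 1915 stayed by not passing in either fit. The 5 losses were all of that probe set. Requiring an absolute log2 difference of at least 1 in addition can only remove calls. Of the 1915, 53 changed sign, 0 of them past the threshold, from sizes of at most 0.23 to at most 0.30 on the log2 scale. Among the 11 probe sets with 1 symbol, 0 passed in any contrast. Quantile normalization gave 3 in BRAF;p53 against wild type. Fitting only the genotypes compared gave 2 there, epb41b and tal1, and 1 in BRAF;p53 against BRAF, epb41b. Without BRAF array 1 and p53 array 3 together the counts were 1 in BRAF;p53 against wild type, 3 in BRAF against wild type, 1 in BRAF;p53 against p53, 2 in BRAF;p53 against BRAF, 2 in the interaction and 3 for any difference. Beside these, 916, 1766, 1227, 1162, 1469 and 2629 of all 15502 probe sets passed in the same order. The main fit had 302, 993, 456, 698, 497 and 1462. Leaving out each array in turn gave 0 to 1 of the 11 probe sets in every contrast except BRAF against wild type, with 0 to 0.

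Over all probe sets, quantile normalization gave 774 calls in BRAF;p53 against wild type (302 as reported) and 697 in BRAF;p53 against p53 (456). Only the genotypes compared gave 836 in BRAF;p53 against wild type, 598 in BRAF against wild type (993) and 105 in p53 against wild type (284). An absolute log2 difference of at least 1 in addition left 145, 350, 121, 171, 220 and 317 calls in BRAF;p53, BRAF and p53 against wild type, BRAF;p53 against p53, BRAF;p53 against BRAF (698) and the interaction (497). Averaging p53 samples 1a and 1b gave 156 in p53 against wild type, 254 in BRAF;p53 against p53 and 312 in the interaction. Without BRAF array 1 and p53 array 3 the counts were 916, 1766, 688, 1227, 1162 and 1469 in the same order and 2629 for any difference (1462). Leaving out each array in turn gave 162 to 510, 595 to 1188, 161 to 466, 179 to 688, 302 to 982 and 284 to 787 in that order, and 983 to 1748 for any difference. The causes were not tested.

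With the replicate number as a block, 328, 996, 316, 424, 703 and 481 probe sets passed in that order and 1468 for any difference, and 0 of 11 erythroid probe sets in each. The block changed no call of an erythroid probe set. Array centring, trend and robust eBayes settings, leaving out probe sets below the centre, and averaging probe sets of a gene kept all erythroid counts at 0. Signal over background is unknown, so a dim probe set that could not respond cannot be told from an unchanged gene.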
